A study of Mus musculus with 17 samples.

Results

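The genes described here encode the machinery that takes a new secretory protein into the endoplasmic reticulum (ER), attaches N-linked glycans to it and loads it into COPII vesicles. The 42 members were chosen by gene symbol, for what their products do, from 55357 genes. The choice was made with earlier results of these data known, so counts of called members are no independent support. All 42 passed the filter on low counts, which kept 22762 genes. RNA was sequenced from β cells sorted for tdTomato fluorescence and DAPI exclusion, from islets of male mice. The culture lasted 72 hours and held glucose at 2.8 mM (low) or at 16.7 mM (high). Per the study's methods, islets had first recovered in culture at a glucose level between these. The low level was thus a step down and the high level a step up. The controls, labelled WT, carried the tdTomato reporter and, per the study's methods, RIP-Cre, so that they shared both with the knockout. The knockout, Pcbp2βKO, was RIP-Cre+;Pcbp2 fl/fl;tdTomato so that Cre, driven by the rat insulin promoter, deletes Pcbp2, which encodes an RNA-binding protein, in the β cell lineage. The groups held 3 control samples at 2.8 mM, 4 control samples at 16.7 mM, 5 Pcbp2βKO samples at 2.8 mM and 5 Pcbp2βKO samples at 16.7 mM. The ages of the mice were not given in the sources used here, and the labels do not say whether replicates came from separate animals, so p-values measure the spread between these samples.

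A protein bound for secretion, such as preproinsulin, shows its signal sequence to the signal recognition particle (SRP), which docks at the SRP receptor and hands the ribosome to the Sec61 channel. The TRAP complex assists entry of some chains, signal peptidase removes the signal sequence, and the oligosaccharyltransferase attaches a preformed glycan to asparagines, after which glucosidases trim it. Folded cargo leaves in vesicles coated by COPII, with cargo receptors that select it, while KDEL receptors return escaped ER residents. β cells are known for the very large share of their protein synthesis that passes through this route as proinsulin, which itself carries no N-linked glycan.

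The libraries held 47385500 to 82419400 estimated counts. Pcbp2 stood at 50.7 to 73.4 CPM in the control samples at 2.8 mM, 35.0 to 45.4 CPM at 16.7 mM, and 15.5 to 19.2 and 5.81 to 10.03 CPM in the corresponding Pcbp2βKO samples, so the groups did not overlap by genotype at either glucose level. Here CPM is an estimated count relative to a library size scaled by TMM, a factor computed so that most genes centre on no change. Of 10 β cell markers, 6 were called higher at 16.7 mM in control and 8 in Pcbp2βKO. Of all genes tested, 7.17% were called higher and 6.7% lower in control, and 13.4% and 10.4% in Pcbp2βKO. Summed TPM of 5 alpha cell markers ran from 723 to 2753 at 2.8 mM and 137 to 1216 at 16.7 mM in control, and from 1752 to 13008 and 101 to 835 in Pcbp2βKO. For 3 delta cell markers the ranges were 345 to 725 and 132 to 421 in control and 777 to 2576 and 166 to 509 in Pcbp2βKO, and for Ppy they were 2711 to 3200.2 and 458 to 1651, and 3656 to 17068 and 496 to 2229. The 4 macrophage markers summed to 5.49 to 9.85 and 0.847 to 3.73 TPM in control and 4.80 to 15.8 and 0.543 to 1.80 in Pcbp2βKO. Markers of acinar, endothelial and stellate cells summed to under 2 TPM in every sample, and 4 ductal markers, nearly all of it Krt7, to 85.8 to 122 at 2.8 mM and 48.5 to 64.7 at 16.7 mM in control, and to 92.6 to 159 and 49.6 to 63.9 in Pcbp2βKO. Called at 16.7 against 2.8 mM were 0 of 4 alpha markers tested (1 at an unadjusted p under 0.05, and 0 by DESeq2), 1 of 3 delta markers (lower) and 1 of 4 macrophage markers (lower) in control, and 2, 2 and 4 (all lower) with Ppy in Pcbp2βKO. Of the 6 proliferation genes, 0 were called by edgeR in control, with 6 at an unadjusted p under 0.05 (reached by 29.3% of all genes) and 3 called by DESeq2, and 6, all higher, in Pcbp2βKO. The part of these cells in the results below was not tested, and in bulk RNA fewer cells of a type and less RNA per cell cannot be told apart. Control replicate 4 and Pcbp2βKO replicates 4 and 5 at 16.7 mM stood apart from their groups on the first principal component, at 9.89, 21.3 and 33.3. The other samples at 16.7 mM were at 90.9 to 99.1 there and those at 2.8 mM at -105 to -42.4, and the glucose counts of the members, of the further pathway genes and of the chaperones are given below with and without the 3.

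Much of the machinery was higher at 16.7 than at 2.8 mM glucose in both genotypes when libraries were scaled by TMM. A gene was called when its adjusted p was under 0.05 and its change over 1.5-fold. In control β cells 16 of 42 members were called higher at 16.7 mM and 0 lower, where 7.17% of all genes tested were called higher and 6.7% lower. In Pcbp2βKO β cells 27 were called higher and 0 lower, against 13.4% and 10.4% of all genes. On adjusted p alone 22 members were higher in control and 31 in Pcbp2βKO, against 7.8% and 15.8% of all genes. The members' median log2 fold change was 0.64 in control and 0.72 in Pcbp2βKO, and that of all genes tested was 0.04 and 0.01. Of the 42, 41 were above 0 in control and 40 in Pcbp2βKO. Both lists shared 15 members, which are 15 of the 16 called in control and 15 of the 27 called in Pcbp2βKO, while Mogs was called in control alone and 14 members in neither.

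**Figure D1:**
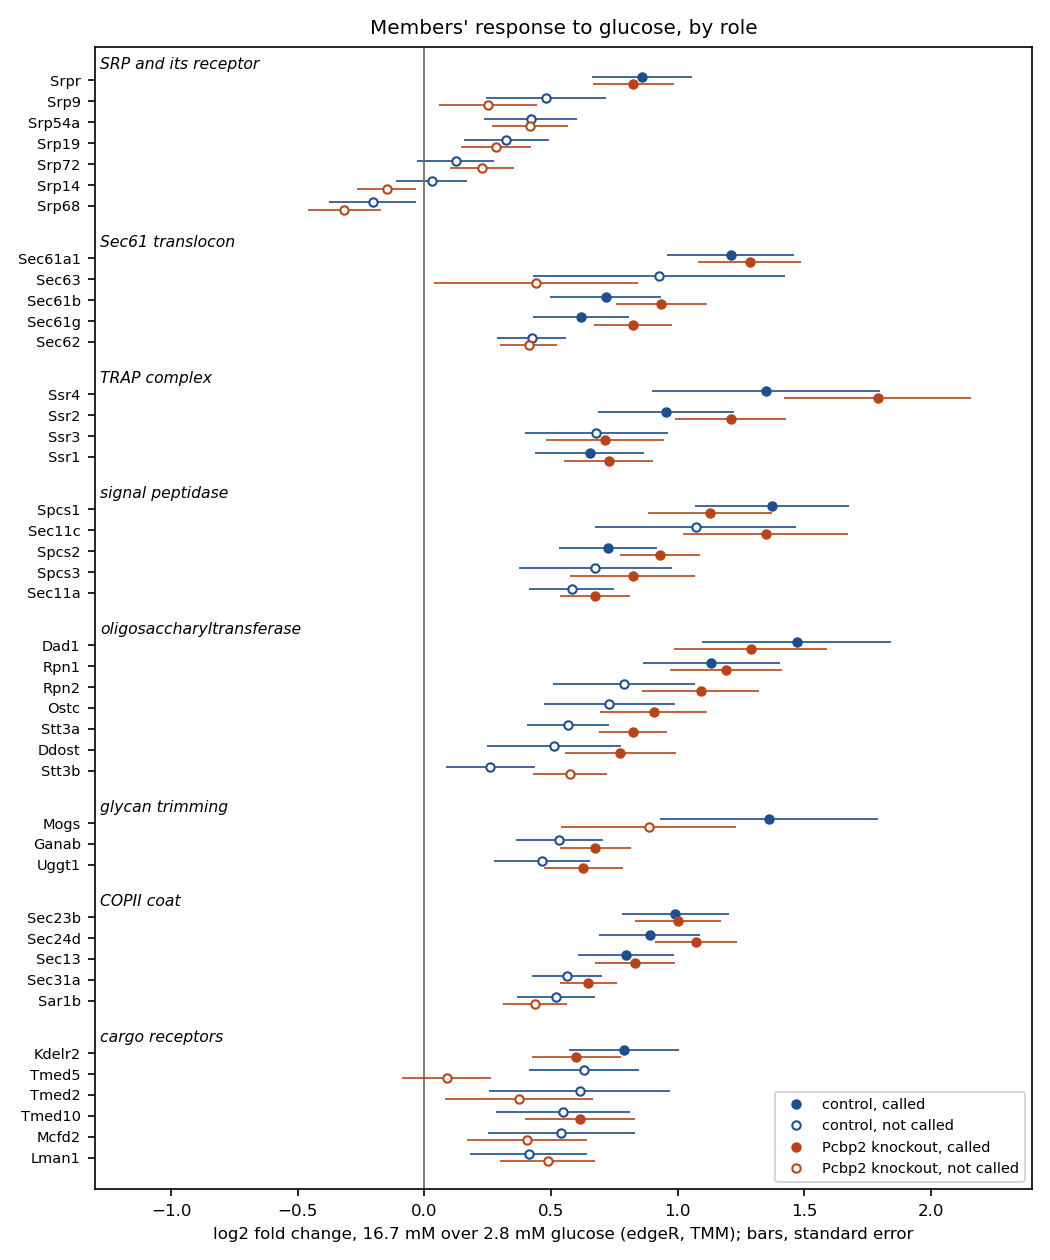
Log2 fold change of each member at 16.7 against 2.8 mM glucose (horizontal axis) in control (blue, 4 against 3 samples) and Pcbp2βKO (orange, 5 against 5), grouped by role, with standard errors as bars and filled points for called members. Most points lie right of 0 on this TMM scale, and on the TPM scale the median member lay left of 0. Some SRP subunits are among the points nearest to 0, as is Tmed5 in Pcbp2βKO.

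The direction of these changes depended on the scale. Ins2, 1 of the 2 mouse insulin genes, took 8.90% to 9.03% of all estimated counts in control at 2.8 mM and 18.2% to 25.7% at 16.7 mM, and 4.92% to 10.4% and 20.7% to 24.7% in Pcbp2βKO. On TPM, a share of all transcripts per length, the 42 members summed to 7851 ± 469 (SD, n = 3) and 7683 ± 1352 (n = 4) in control, and to 7655 ± 1382 (n = 5) and 6704 ± 1530 (n = 5) in Pcbp2βKO, so the groups overlapped. With limma on log2(TPM + 1), 0 members were called higher and 3 lower in control, and 0 higher and 10 lower in Pcbp2βKO. Of all genes, 268 were called higher and 6896 lower in control on that scale, and 356 and 8546 in Pcbp2βKO. That fit kept genes by their TPM and not by the filter on counts, so 22762 is not the number it tested. The members' median on that scale was -0.17 and -0.33, beside -0.64 and -0.80 for all genes. With total counts in place of TMM, 4 members were called higher and 1 lower in control and 7 higher and 2 lower in Pcbp2βKO. Over all genes the calls were 783 higher and 4054 lower in control and 1481 and 6370 in Pcbp2βKO. The members' medians were 0.25 and 0.22, beside -0.35 and -0.47 for all genes. The members' median thus lay above that of all genes by 0.47 to 0.60 in control and 0.47 to 0.71 in Pcbp2βKO on these 3 scales. A change of library scale moves members and all genes by about the same amount, so the 3 are not separate checks of this gap. As a share of the counts outside Ins1, Ins2 and Iapp, the 42 members took 1.67% ± 0.14 (SD, n = 3) and 2.73% ± 0.49 (n = 4) in control and 1.52% ± 0.14 (n = 5) and 2.65% ± 0.56 (n = 5) in Pcbp2βKO. Changes below are on the TMM scale unless TPM is named.

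**Figure D2:**
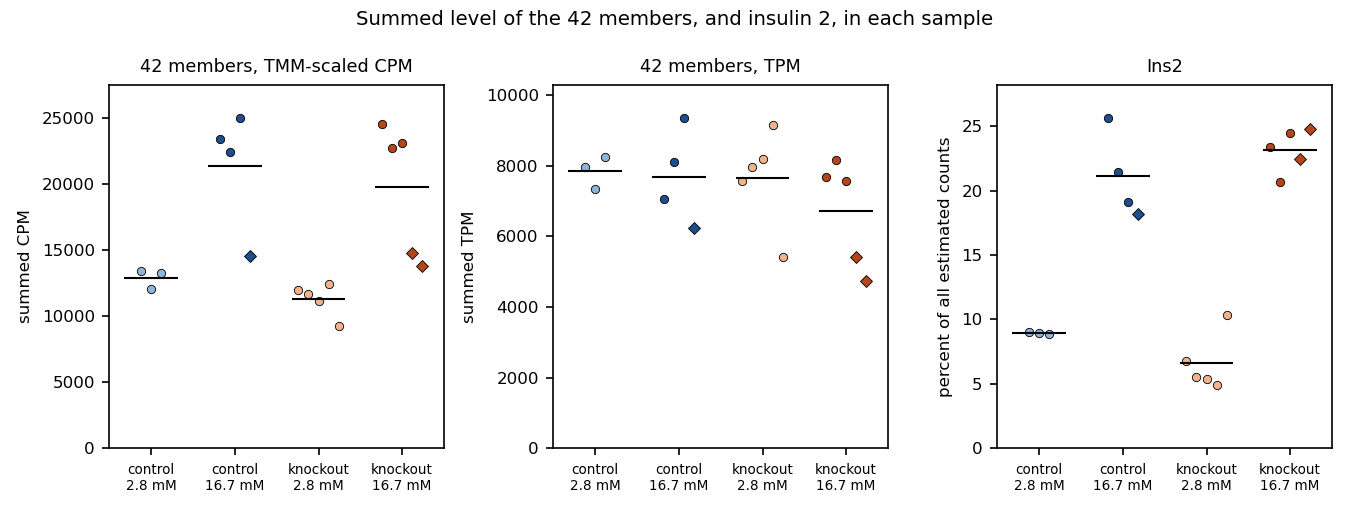
Summed level of the 42 members in each sample as TMM-scaled CPM (left) and as TPM (middle), and Ins2 as a percentage of all estimated counts (right), by group; lines are group means and diamonds the 3 samples that stood apart. In CPM the samples at 2.8 mM reach at most 13420 and those at 16.7 mM start at 13775, whereas in TPM the groups overlap.

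**Figure D3:**
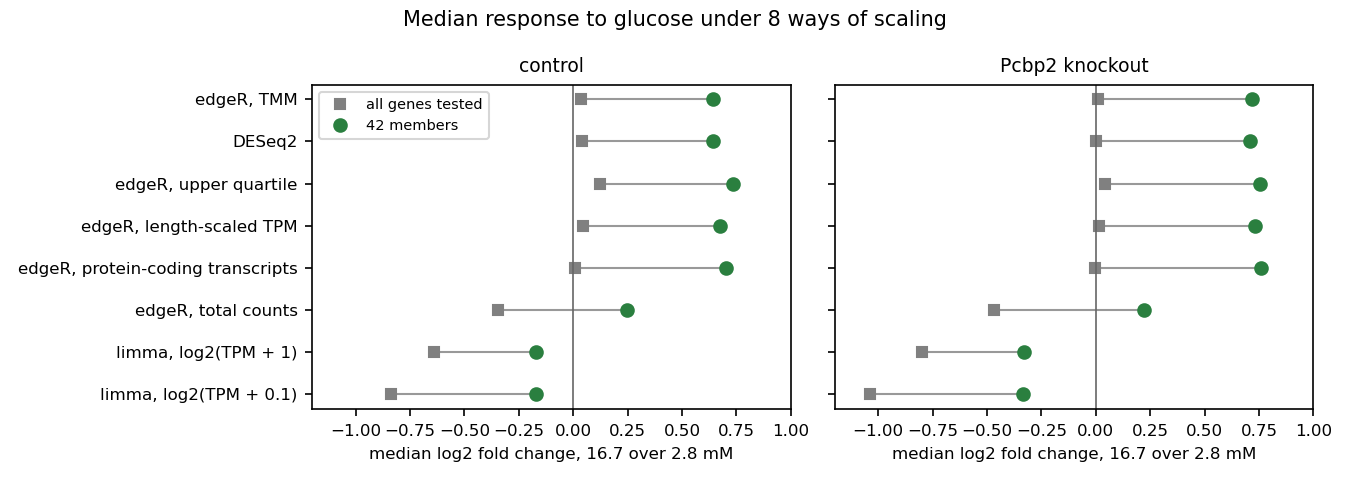
Median log2 fold change at 16.7 against 2.8 mM (horizontal axis) of the 42 members (green circles) and of all genes tested (grey squares) under 8 ways of scaling, in control (left) and Pcbp2βKO (right). The members lie to the right of all genes in each row, and below 0 in both TPM rows. The rows come from the same samples and are not separate checks.

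The 3 samples at 16.7 mM that stood apart had the lowest summed CPM of the members in their groups, at 14531 in control and at 14811 and 13775 in Pcbp2βKO. The other samples at 16.7 mM summed to 22415 to 25055 CPM in control and 22733 to 24557 in Pcbp2βKO. Without the 3, 31 members were called higher in each genotype, among them all of the 16 and of the 27, and the medians were 0.74 and 0.91. Calls over all genes went from 1631 to 2271 higher and from 1525 to 2627 lower in control. In Pcbp2βKO they went from 3055 to 3181 higher and from 2376 to 3209 lower. The 3 were set apart by lying nearer the samples at 2.8 mM, so more calls without them are no separate support. By role, in the order in which they are described below, the members called higher without the 3 were 2 of 7 for SRP and its receptor, 3 of 5 for Sec61, 4 of 4 for TRAP, 5 of 5 for signal peptidase, 6 of 7 for the oligosaccharyltransferase, 2 of 3 for glycan trimming, 5 of 5 for COPII and 4 of 6 for cargo receptors in control. In Pcbp2βKO they were 1, 3, 4, 5, 7, 3, 4 and 4 over the same roles. In control, the same replicate numbers at 2.8 and 16.7 mM deviated together, and with the replicate number as a block 31 members were called higher and the 16 stayed called. Control replicate 4 at 16.7 mM has no partner at 2.8 mM, so that fit drew no glucose effect from it. Pairing and the absence of replicate 4 therefore cannot be told apart in this count. The control count was sensitive to single libraries. It dropped to 4 when the second sample at 2.8 mM was omitted, to 9 when the third was, and to 8 when the third at 16.7 mM was, and came to 29 when replicate 4 at 16.7 mM was. All genes called higher in these fits numbered 689, 1265, 1203 and 2217, against 1631 with every sample. The counts over all genes thus moved in the same directions, by smaller proportions than those of the members.

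Of 7 genes for SRP and its receptor, 1 was called higher in each genotype, and it was Srpr, the α subunit of the receptor in the ER membrane, a gene at chr9:35111471-35172234 on GRCm39, the build of all gene positions given here. Srpr stood at 716, 558 and 701 CPM in the 3 control samples at 2.8 mM and 1382, 1109, 1436 and 848 CPM in the 4 at 16.7 mM. It stood at 581, 576, 561, 619.9 and 609 CPM in the 5 Pcbp2βKO samples at 2.8 mM and 1235, 1119, 1252, 823 and 791 CPM in the 5 at 16.7 mM. Both pairs of groups were apart, with log2 fold changes of 0.86 ± 0.20 (SE, adjusted p = 0.00750) in control and 0.83 ± 0.16 (adjusted p = 0.000855) in Pcbp2βKO. The 6 genes for the protein subunits of the particle were not called. Srp54a, which binds the signal sequence, Srp19, which helps the particle assemble, and Srp9, of the Alu domain, had log2 fold changes of 0.32 to 0.48 in control and 0.25 to 0.42 in Pcbp2βKO. Srp54b and Srp54c, close copies of Srp54a between which reads may be split, had 0.44 ± 0.18 and 0.39 ± 0.19 in control. Srp72 had 0.12 ± 0.15 and 0.23 ± 0.13. Srp14, the partner of Srp9 in slowing the ribosome, had 0.029 ± 0.14 in control and -0.15 ± 0.12 in Pcbp2βKO. Srp68, the partner of Srp72, was the one member below 0 in both, at -0.20 ± 0.17 and -0.32 ± 0.14. Srp68 was called lower on total counts in each genotype, and on log2(TPM + 1) it had -0.997 and -1.29 and Srp14 -0.79 and -1.17, each called lower. Summed TPM of the 7 was 1115 ± 29.4 (SD, n = 3) and 826 ± 147 (n = 4) in control and 1126 ± 103 (n = 5) and 654 ± 69.7 (n = 5) in Pcbp2βKO.

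Of 5 genes of the Sec61 translocon, the 3 channel subunits were called higher in both genotypes. Sec61a1 (chr6:88480561-88495899), which forms the pore, stood at 499, 322 and 466 CPM in the 3 control samples at 2.8 mM and 1215, 954, 1195 and 609 CPM in the 4 at 16.7 mM. In the knockout it stood at 365, 296, 359.7, 382 and 331 CPM in the 5 Pcbp2βKO samples at 2.8 mM and 1061, 907, 1036, 620.1 and 599 CPM in the 5 at 16.7 mM. The groups did not overlap in either genotype, and the log2 fold changes were 1.21 ± 0.25 (SE, adjusted p = 0.00429) and 1.28 ± 0.20 (adjusted p = 0.000158). Sec61b, the β subunit, had 226, 207 and 211 CPM in the 3 control samples at 2.8 mM and 449.6, 359, 394 and 206 CPM in the 4 at 16.7 mM. Its Pcbp2βKO samples had 205, 153, 177, 174 and 140.1 CPM at 2.8 mM and 377, 319, 391, 238 and 300.1 CPM at 16.7 mM. Control replicate 4 at 16.7 mM was below all 3 samples at 2.8 mM, while the Pcbp2βKO groups were apart. Sec61b had 0.72 ± 0.22 and 0.94 ± 0.18, and Sec61g, the γ subunit, 0.62 ± 0.19 and 0.82 ± 0.16. On log2(TPM + 1) the values of Sec61b were -0.19 and -0.12 and those of Sec61g -0.25 and -0.29, so both changed sign, and those of Sec61a1 were 0.33 and 0.17. Sec62 and Sec63, which help chains that enter after translation, were not called, at 0.42 ± 0.14 and 0.93 ± 0.50 in control and 0.41 ± 0.11 and 0.44 ± 0.40 in Pcbp2βKO. Sec63 ranged from 34.4 to 158 CPM over the 17 samples, without separating the groups. The 5 genes summed to 871 ± 97.8 and 823 ± 149 TPM (SD, n = 3 and n = 4) in control and to 790.5 ± 138 and 727 ± 91.3 TPM (n = 5 each) in Pcbp2βKO.

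The TRAP complex, which sits beside the channel, was called higher in 3 of 4 subunits in control and in 4 of 4 in Pcbp2βKO. Ssr4 (chrX:72830304-72836970), the δ subunit, stood at 343, 385 and 284 CPM in the 3 control samples at 2.8 mM and 1173, 1142, 799.97 and 322 CPM in the 4 at 16.7 mM. It stood at 281, 269.9, 223, 234 and 132 CPM in the 5 Pcbp2βKO samples at 2.8 mM and 1157, 1039, 1027, 423 and 298 CPM in the 5 at 16.7 mM. Control replicate 4 at 16.7 mM lay among the samples at 2.8 mM, and in the knockout replicate 5 at 16.7 mM lay just above the highest sample at 2.8 mM. Its log2 fold change was 1.35 ± 0.45 (SE, adjusted p = 0.0488) in control and 1.79 ± 0.37 (adjusted p = 0.00133) in Pcbp2βKO, the largest of the 42 there. Ssr2, the β subunit, stood at 203, 174 and 159 CPM in the 3 control samples at 2.8 mM and 449, 356, 384 and 197 CPM in the 4 at 16.7 mM. In Pcbp2βKO it had 151, 140.1, 141, 134 and 107 CPM at 2.8 mM and 402, 340.1, 399, 212 and 204 CPM at 16.7 mM. Again control replicate 4 lay within the range of 2.8 mM, and the log2 fold changes were 0.95 ± 0.27 and 1.21 ± 0.22. Ssr1 had 0.65 ± 0.22 and 0.73 ± 0.18, both called, and Ssr3 0.68 ± 0.28, not called, and 0.71 ± 0.23, called. In summed TPM the 4 subunits went from 942 ± 37.00 to 1141 ± 302 (SD, n = 3 and n = 4) in control and from 761 ± 195 to 1001 ± 391 (n = 5 each) in Pcbp2βKO, with overlapping ranges.

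Signal peptidase was called higher in 2 of 5 subunits in control and in 5 of 5 in Pcbp2βKO. Spcs1 (chr14:30718991-30723629), a small accessory subunit, had 181, 197 and 182 CPM in the 3 control samples at 2.8 mM and 477, 561, 649 and 247 CPM in the 4 at 16.7 mM. Its knockout values were 206, 205, 167, 192 and 173 CPM at 2.8 mM and 565, 481, 513, 265 and 238 CPM at 16.7 mM. All samples at 16.7 mM exceeded those at 2.8 mM, with log2 fold changes of 1.37 ± 0.30 (SE, adjusted p = 0.00627) and 1.13 ± 0.25 (adjusted p = 0.00196). Spcs2 had 476, 437 and 403 CPM in the 3 control samples at 2.8 mM and 794, 725, 846 and 538 CPM in the 4 at 16.7 mM. In Pcbp2βKO Spcs2 had 427, 402, 377, 435 and 289 CPM at 2.8 mM and 883, 769, 859.8, 567 and 599.7 CPM at 16.7 mM. These groups were apart too, with 0.73 ± 0.19 and 0.93 ± 0.16 on TMM, but -0.11 and -0.15 on log2(TPM + 1). Sec11c, 1 of the 2 catalytic subunits, had 256, 296 and 265 CPM in the 3 control samples at 2.8 mM and 653, 769, 621 and 247 CPM in the 4 at 16.7 mM. In the knockout Sec11c had 216, 201, 193, 220.2 and 111 CPM at 2.8 mM and 658, 643, 612, 287 and 194 CPM at 16.7 mM. Control replicate 4 at 16.7 mM lay below the samples at 2.8 mM, and Pcbp2βKO replicate 5 within their range. Sec11c had 1.07 ± 0.40 (adjusted p = 0.0746), not called, and 1.35 ± 0.33 (adjusted p = 0.00422), called. The other catalytic subunit, Sec11a, had 0.58 ± 0.17 and 0.67 ± 0.14 and Spcs3 0.67 ± 0.30 and 0.82 ± 0.25, each called in Pcbp2βKO. The 5 genes summed to 1301 ± 39.9 and 1473 ± 383 TPM (SD, n = 3 and n = 4) in control and to 1252 ± 275 and 1239.5 ± 350.2 TPM (n = 5 each) in Pcbp2βKO.

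Of 7 oligosaccharyltransferase genes, 2 were called higher in control and 6 in Pcbp2βKO. Dad1 (chr14:54472936-54491561), a small subunit named as a defender against cell death, stood at 231, 221 and 189 CPM in the 3 control samples at 2.8 mM and 857, 709.6, 588 and 211 CPM in the 4 at 16.7 mM. In Pcbp2βKO Dad1 stood at 210.00, 177, 195, 207 and 257 CPM at 2.8 mM and 666, 609.7, 687, 295 and 298 CPM at 16.7 mM. Control replicate 4 lay inside the range of 2.8 mM, the knockout groups were apart, and the log2 fold changes were 1.47 ± 0.37 (SE, adjusted p = 0.0129), the largest of the 42 in control, and 1.29 ± 0.30 (adjusted p = 0.00338). Rpn1, ribophorin I, had 654, 385 and 552 CPM in the 3 control samples at 2.8 mM and 1441, 1167, 1340.4 and 705 CPM in the 4 at 16.7 mM. In Pcbp2βKO it had 519.96, 401, 474, 546 and 419 CPM at 2.8 mM and 1343, 1240.5, 1334, 739.9 and 731 CPM at 16.7 mM. Rpn1 was higher at 16.7 mM in every sample, with 1.13 ± 0.27 and 1.19 ± 0.22. Rpn2, ribophorin II, stood at 969, 758 and 806 CPM in the 3 control samples at 2.8 mM and 1824, 1720.01, 1404 and 879 CPM in the 4 at 16.7 mM. Its Pcbp2βKO samples stood at 762, 695, 714, 819 and 501 CPM at 2.8 mM and 1893, 1908, 1729, 998 and 909.9 CPM at 16.7 mM. Rpn2 overlapped in control, through replicate 4, at 0.79 ± 0.28 (adjusted p = 0.0638), and did not in Pcbp2βKO, at 1.09 ± 0.23 (adjusted p = 0.00160). Of its estimated counts 79.9% lay on transcripts not annotated as protein-coding, the highest share of the 42, followed by Uggt1 with 65.6% and Srp19 with 23.8%.

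Of the catalytic subunits, Stt3a, which acts as chains enter, had 0.57 ± 0.16 and 0.82 ± 0.13, called in Pcbp2βKO, and Stt3b, which can act after entry, 0.26 ± 0.18 and 0.57 ± 0.15, not called. Ddost had 0.51 ± 0.26 and 0.77 ± 0.22 and Ostc 0.73 ± 0.26 and 0.91 ± 0.21, each called in Pcbp2βKO alone. Summed TPM of the 7 genes was 1851 ± 211 and 1888 ± 321 (SD, n = 3 and n = 4) in control and 1788 ± 337 and 1719 ± 433 (n = 5 each) in Pcbp2βKO.

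**Figure D4:**
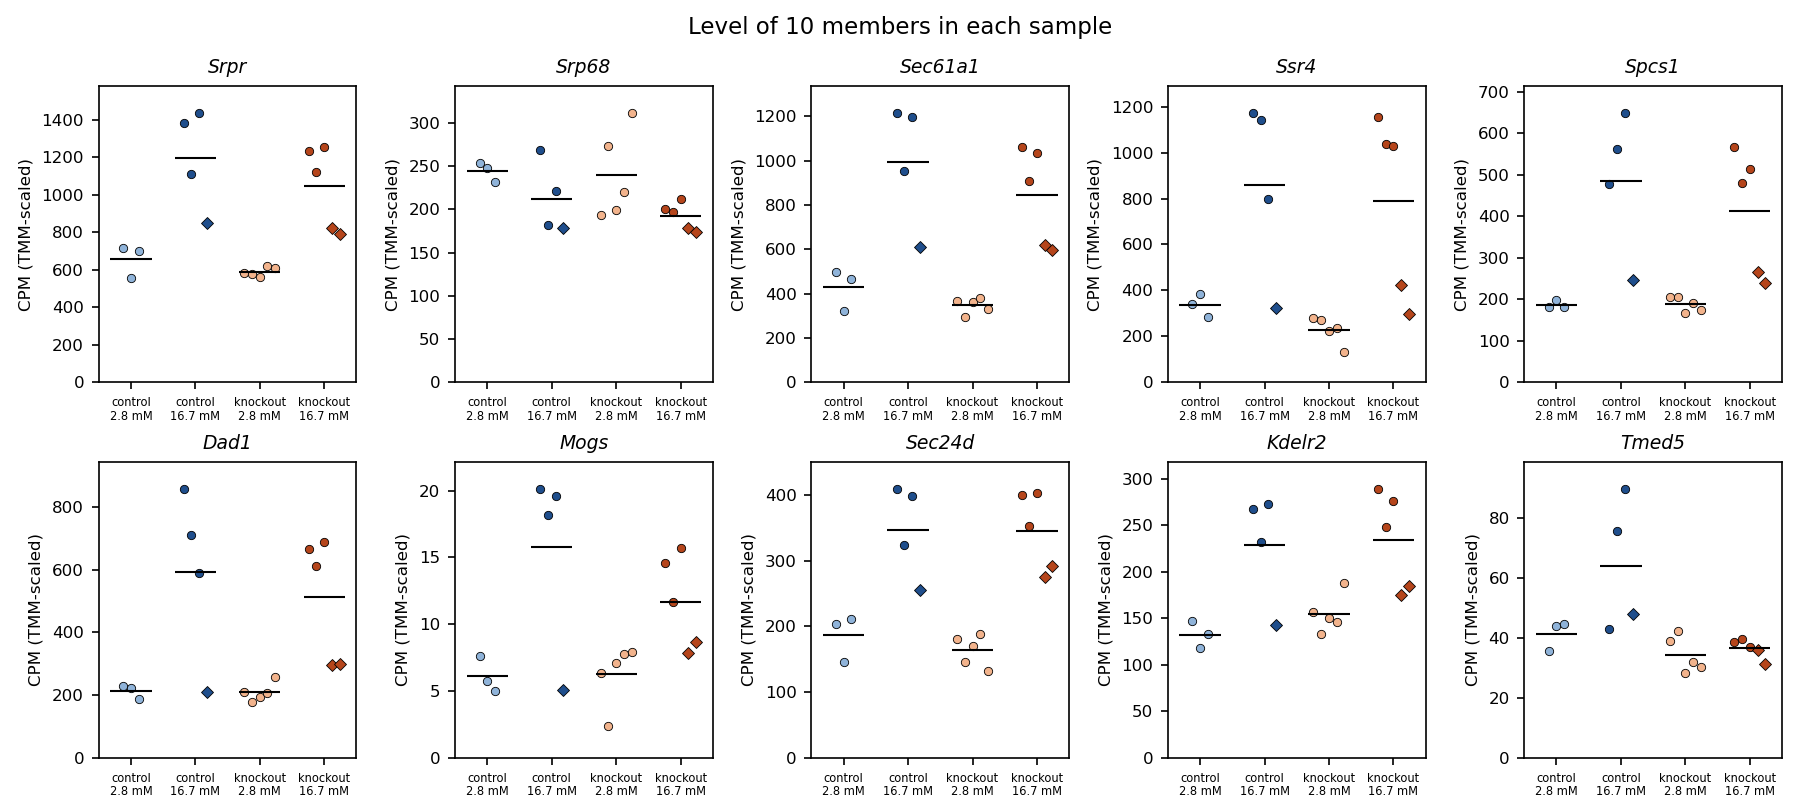
TMM-scaled CPM of 10 members in each sample, by group, with group means as lines and the 3 samples that stood apart as diamonds. The diamonds are the lowest at 16.7 mM for most of these genes, Srp68 shows no rise, and Tmed5 is high at 16.7 mM in control samples 2 and 3.

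Of 3 genes that trim and check the glycan, Mogs was called higher in control and Ganab and Uggt1 in Pcbp2βKO. Mogs (chr6:83092466-83095884), glucosidase I, was the lowest of the 42 per length, at 2.18 ± 0.375 TPM (SD, n = 3) in control at 2.8 mM, and its CPM were 7.59, 5.79 and 4.99 there and 20.1, 18.2, 19.6 and 5.06 at 16.7 mM. In Pcbp2βKO its CPM were 6.38, 2.42, 7.09, 7.79 and 7.89 at 2.8 mM and 14.6, 11.6, 15.7, 7.84 and 8.67 at 16.7 mM. Control replicate 4 at 16.7 mM stood among the samples at 2.8 mM, and the log2 fold changes were 1.36 ± 0.43 (SE, adjusted p = 0.0380) and 0.89 ± 0.35 (adjusted p = 0.0609). Ganab, the α subunit of glucosidase II, had 0.53 ± 0.17 and 0.68 ± 0.14, and Uggt1, the folding sensor that adds a glucose back to misfolded glycoproteins, 0.46 ± 0.19 and 0.63 ± 0.16. On log2(TPM + 1) both lay below 0, Ganab at -0.25 and -0.36 and Uggt1 at -0.36 and -0.56.

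Of 5 COPII genes, 3 were called higher in control and 4 in Pcbp2βKO. Sec23b (chr2:144391970-144432684), of the inner coat, had 276, 212 and 271 CPM in the 3 control samples at 2.8 mM and 529, 504, 636 and 343 CPM in the 4 at 16.7 mM. In Pcbp2βKO Sec23b had 212, 211, 210.4, 238 and 207 CPM at 2.8 mM and 518, 498, 502, 324 and 316 CPM at 16.7 mM. No sample at 16.7 mM reached down to those at 2.8 mM, and the log2 fold changes were 0.99 ± 0.21 (SE, adjusted p = 0.00483) and 1.001 ± 0.17 (adjusted p = 0.000293). Sec24d, the cargo-binding partner of Sec23 proteins, had 204, 146 and 212 CPM in the 3 control samples at 2.8 mM and 409.7, 324, 399 and 255 CPM in the 4 at 16.7 mM. Its Pcbp2βKO samples had 181, 146, 170.4, 189 and 132 CPM at 2.8 mM and 399, 352, 404, 275 and 292 CPM at 16.7 mM. These groups were apart in both genotypes, at 0.89 ± 0.20 and 1.07 ± 0.16. Sec13, of the outer coat, had 196, 156 and 162 CPM in the 3 control samples at 2.8 mM and 337, 298, 344 and 210.00 CPM in the 4 at 16.7 mM. In the knockout Sec13 had 147, 127, 128, 147 and 160.3 CPM at 2.8 mM and 317, 249.96, 294, 211 and 191 CPM at 16.7 mM. Sec13 did not overlap either, at 0.80 ± 0.19 and 0.83 ± 0.16 on TMM, though at -0.037 and -0.22 on log2(TPM + 1). Sec31a, its outer coat partner, had 0.56 ± 0.14 and 0.65 ± 0.11, called in Pcbp2βKO, and Sar1b, the GTPase that starts the coat, 0.52 ± 0.15 and 0.44 ± 0.13, under the fold limit. The 5 genes summed to 515 ± 56.9 and 496 ± 74.3 TPM (SD, n = 3 and n = 4) in control and to 521 ± 49.8 and 427 ± 31.5 TPM (n = 5 each) in Pcbp2βKO.

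Since many members moved together, their promoters were searched for 3 motifs of the unfolded protein response on both strands. They were the ER stress element ERSE (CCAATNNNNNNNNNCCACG), ERSE-II (ATTGGNCCACG) and the element UPRE (TGACGTGG), of which UPRE and the last letters of both ERSE forms share bases on opposite strands. RefSeq windows on GRCm38.p6, from 250 bases before to 50 after a start, were given for 32 of 42 members. UPRE was in 1 of these 32 members, or 3.12%, and in 0.714% of all 27025 genes with a window. ERSE was in 0 members and 0.137% of all genes, and ERSE-II in 0 and 0.0444%. The 1 match was in Sec24d, shown with the match in capitals, at -26 to -19 from the start. The windows of Dad1 and Ssr4, whose fold changes were the largest in control and in Pcbp2βKO, are shown beside it and hold none of the 3. A match is a description of the letters, and no match says only that they are not in these windows. The Sec24d window is at chr3:123267246-123267545 on the + strand, that of Dad1 at chr14:54253880-54254179 on the − strand and that of Ssr4 at chrX:73786773-73787072 on the + strand, each printed 5′ to 3′ on the strand of the gene.
Sec24d: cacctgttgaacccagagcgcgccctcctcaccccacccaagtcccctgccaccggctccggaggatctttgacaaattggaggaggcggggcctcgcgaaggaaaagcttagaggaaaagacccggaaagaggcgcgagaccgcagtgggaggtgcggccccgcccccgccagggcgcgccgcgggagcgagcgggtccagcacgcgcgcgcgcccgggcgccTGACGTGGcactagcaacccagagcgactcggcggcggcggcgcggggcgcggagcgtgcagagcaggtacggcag
Dad1: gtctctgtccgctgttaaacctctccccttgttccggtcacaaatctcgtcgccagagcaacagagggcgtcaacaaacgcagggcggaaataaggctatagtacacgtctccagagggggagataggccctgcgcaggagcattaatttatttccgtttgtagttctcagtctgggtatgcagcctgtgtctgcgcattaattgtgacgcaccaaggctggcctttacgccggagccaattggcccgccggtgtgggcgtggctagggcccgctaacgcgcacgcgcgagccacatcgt
Ssr4: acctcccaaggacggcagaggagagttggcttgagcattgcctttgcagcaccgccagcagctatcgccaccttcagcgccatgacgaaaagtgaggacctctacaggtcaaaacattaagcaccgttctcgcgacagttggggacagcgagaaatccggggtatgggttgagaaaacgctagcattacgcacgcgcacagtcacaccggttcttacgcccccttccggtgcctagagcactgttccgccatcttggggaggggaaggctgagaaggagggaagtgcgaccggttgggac

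Of 6 cargo receptor genes, 1 was called higher in control and 2 in Pcbp2βKO. Kdelr2 (chr5:143389580-143407659), which returns ER residents that carry a KDEL signal, was called in both. It had 147, 118 and 133 CPM in the 3 control samples at 2.8 mM and 268, 231, 273 and 143 CPM in the 4 at 16.7 mM. In the knockout Kdelr2 had 157, 134, 149.8, 146 and 188 CPM at 2.8 mM and 289, 248, 276, 175 and 185 CPM at 16.7 mM. In each genotype 1 or more samples that stood apart reached into the range of 2.8 mM, and the log2 fold changes were 0.79 ± 0.22 (SE, adjusted p = 0.0194) and 0.60 ± 0.18 (adjusted p = 0.0149), but -0.045 and -0.44 on log2(TPM + 1). Tmed10, a p24 protein of vesicles, had 0.55 ± 0.26 and 0.62 ± 0.22, called in Pcbp2βKO. Lman1 and Mcfd2, which together carry coagulation factors V and VIII, had 0.41 ± 0.23 and 0.54 ± 0.29 in control and 0.49 ± 0.19 and 0.41 ± 0.24 in Pcbp2βKO, and Tmed2, another p24 protein, 0.61 ± 0.36 and 0.37 ± 0.29. None of these 3 was called. The 6 genes summed to 1121 ± 169 and 927 ± 181 TPM (SD, n = 3 and n = 4) in control and to 1291 ± 362 and 849 ± 186 TPM (n = 5 each) in Pcbp2βKO.

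The share of each role in the members' summed TPM does not depend on how a library is scaled, and is given as a description, with no test. SRP and its receptor held 13.6% to 15.2% of that sum in control at 2.8 mM and 9.74% to 12.8% at 16.7 mM. In Pcbp2βKO they held 13.5% to 19.1% and 8.62% to 11.9%. The ranges did not overlap in either genotype. The TRAP complex held 10.9% to 13.1% and 11.3% to 17.1% in control and 7.72% to 11.3% and 10.5% to 16.9% in Pcbp2βKO, overlapping in both genotypes. Cargo receptors held 12.7% to 15.9% and 10.5% to 14.9% in control, overlapping, and 14.6% to 19.02% and 11.8% to 14.5% in Pcbp2βKO. The oligosaccharyltransferase held the largest share in each group, at 22.1% to 25.5% and 23.1% to 26.99% in control, overlapping, and 22.3% to 24.2% and 24.4% to 26.3% in Pcbp2βKO. By gene, Sec61b had the highest level in control at 2.8 mM at 617 ± 61.8 TPM (SD, n = 3), followed by Ssr4 at 559 ± 47.3 and Ddost at 487 ± 56.4, neighbours whose SDs overlap. The lowest were Sec62 at 23.95 ± 4.99, Sec63 at 16.6 ± 7.08, Tmed5 at 13.96 ± 0.518 and Mogs at 2.18 ± 0.375, of which Mogs alone was apart from the others by more than their SDs.

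A further 99 genes of the pathway were listed by role, with earlier results of these data known. Of these, 25 were called higher and 5 lower with glucose in control and 24 and 6 in Pcbp2βKO, and the medians were 0.29 and 0.27. Of all genes tested, 7.17% were called higher and 6.7% lower in control, and 13.4% and 10.4% in Pcbp2βKO. The calls lower among the 99 were thus under the share of all genes. Without the 3 samples that stood apart the calls were 31 and 7 in control and 37 and 8 in Pcbp2βKO. Over all genes they were then 2271 and 2627 in control and 3181 and 3209 in Pcbp2βKO. On log2(TPM + 1), where 97 of the 99 were tested, 1 was called higher and 39 lower in control, beside 268 and 6896 of all genes. In Pcbp2βKO the counts were 2 and 60, beside 356 and 8546 of all genes. In control the genes called higher were 4 of 24 for other translocation and insertion, 2 of 5 for other oligosaccharyltransferase subunits, 2 of 23 for the dolichol-linked oligosaccharide, 1 of 7 for other glycan trimming, 6 of 13 for other COPII and exit sites, 6 of 18 for other cargo receptors and 4 of 9 for the COPI coat. In Pcbp2βKO the counts over the same lists were 4, 1, 2, 1, 5, 7 and 4. The largest rises were those of Kdelr3, a further KDEL receptor, at 2.19 ± 0.51 and 2.54 ± 0.42, and Sec16b, a scaffold of ER exit sites, at 1.53 ± 0.36 and 1.92 ± 0.29, in control and Pcbp2βKO. The next was Surf4, a cargo receptor, in control, at 1.29 ± 0.22, and Alg14, of glycan precursor synthesis, in Pcbp2βKO, at 1.40 ± 0.20. Kdelr3 stood at 7.05 ± 1.22 and 17.9 ± 6.78 TPM (SD, n = 3 and n = 4) in control and 5.55 ± 0.804 and 15.3 ± 8.67 TPM (n = 5 each) in Pcbp2βKO, so its means were higher on this scale too, though the ranges overlapped in Pcbp2βKO. Called lower were Tmed1, a p24 protein, at -0.90 ± 0.22 and -0.96 ± 0.19, and Ccdc47, of a membrane insertion complex, at -0.84 ± 0.22 and -0.82 ± 0.19, with Get1, of the tail-anchor route, at -0.69 ± 0.16 in control and Snd1 at -0.89 ± 0.12 in Pcbp2βKO. Snd1 was listed by its symbol, and a part of the mouse gene in this pathway is not established here. It counts among the 6 called lower in Pcbp2βKO. Of 10 ER chaperones and reporters of the unfolded protein response, 4 were called higher in control (Dnajc3, Hyou1, Creld2 and Manf) and 7 in Pcbp2βKO, and 7 and 8 without the 3 samples that stood apart. On log2(TPM + 1) 2 of the 10 were called in each genotype, both lower. Hspa5, the chaperone BiP, was at -0.15 ± 0.19 and 0.091 ± 0.16 and Xbp1 at 0.18 ± 0.13 and 0.090 ± 0.10, neither called.

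Loss of Pcbp2 was compared within each glucose level. At 2.8 mM, edgeR called 0 of 42 members and DESeq2 called 0, where edgeR called 0.255% of all genes higher and 1.78% lower. At an unadjusted p under 0.05 was 1 of the 42, beside 12.9% of all genes. The median of the members was -0.23, that of all genes 0.03, and 34 of 42 were below 0. On TPM the members' median was -0.07 and that of all genes 0.12. Ganab had the lowest p, with CPM of 216, 151 and 191 in control and 132, 107, 121, 137 and 149 in Pcbp2βKO. The groups were apart by a small gap, and the log2 fold change was -0.52 ± 0.16 (SE, adjusted p = 0.114). Ssr4 and Sec11c had larger differences with more spread, at -0.56 ± 0.41 and -0.53 ± 0.36. Of the other 99 pathway genes 1 was called, Uggt2, a relative of Uggt1, at -0.89 ± 0.21 (adjusted p = 0.0278).

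At 16.7 mM 1 of 42 members was called, lower in Pcbp2βKO, where 0.29% of all genes were called higher and 1.41% lower. It was Tmed5 (chr5:108254230-108280568), a p24 protein of vesicles between ER and Golgi. Tmed5 stood at 42.8, 75.6, 89.7 and 47.8 CPM in the 4 control samples and at 38.8, 39.7, 37.02, 36.02 and 31.3 CPM in the 5 Pcbp2βKO samples at 16.7 mM. All Pcbp2βKO samples were below all control samples, though control replicates 1 and 4 were near them, and the log2 fold change was -0.81 ± 0.19 (SE, adjusted p = 0.0303). At 2.8 mM Tmed5 had 35.7, 43.9 and 44.5 CPM in control and 39.1, 42.1, 28.4, 32.05 and 30.3 CPM in Pcbp2βKO, which overlapped, at -0.27 ± 0.20. With glucose it had 0.63 ± 0.22 in control and 0.088 ± 0.18 in Pcbp2βKO, and the difference of the 2 responses was -0.54 ± 0.28 and was not called. Leaving out control replicate 2 or 3 at 16.7 mM gave Tmed5 an adjusted p of 0.117 or 0.174, and leaving out any 1 of the 5 Pcbp2βKO samples at 16.7 mM gave 0.0540 to 0.0678. The call held by DESeq2 (adjusted p = 0.00446) and on log2(TPM + 1) (adjusted p = 0.00662). The other 41 members ranged from -0.65 ± 0.25 for Mcfd2 to 0.10 ± 0.31 for Tmed2. Mcfd2, not called here, is in the study's list of genes dysregulated without Pcbp2 that were also altered in diabetic db/db mice. The study's fit had a batch term, which was left out here. Of the 42 members, 32 were below 0, with a median of -0.13 beside 0.01 for all genes. This median moved with single libraries at 16.7 mM, to -0.29 without control replicate 4 and to -0.056 without control replicate 3. It was -0.21 without Pcbp2βKO replicate 1 or 3, -0.035 without replicate 4, -0.056 without replicate 5 and -0.077 without the 3 samples that stood apart. Of the 99 further pathway genes edgeR and DESeq2 each called 0 at 16.7 mM, with 10 at an unadjusted p under 0.05, beside 12.1% of all genes.

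The test of whether glucose acted differently by genotype called 0 of 42 members in edgeR and 0 in DESeq2, against 0.00439% of all genes called higher. At an unadjusted p under 0.05 were 0 of the 42, beside 4.58% of all genes. The differences of the log2 fold changes, Pcbp2βKO minus control, ran from -0.54 ± 0.28 for Tmed5 to 0.44 ± 0.56 for Ssr4, with standard errors of 0.18 to 0.63. The median was 0.07, beside -0.01 for all genes, and its sign was not stable. It was below 0 without control replicate 4 (-0.088) or Pcbp2βKO replicate 1 or 3 (-0.0095 and -0.0036) at 16.7 mM, on total counts (-0.023) and on log2(TPM + 1) (-0.19, beside -0.18 for all genes), and 0.13 without the 3 samples that stood apart. The 12 members called with glucose in Pcbp2βKO alone, and Mogs, called in control alone, were therefore not shown to respond differently in the 2 genotypes. Of the 99 further genes edgeR and DESeq2 each called 0, with 1 at an unadjusted p under 0.05.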

How the data were processed

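Polyadenylated RNA of FACS-sorted β cells was sequenced as paired ends from an ultra-low-input kit. The authors quantified reads with Kallisto on the mm39 transcriptome, and deposited estimated counts and TPM for 142376 transcripts per sample; the versions are not given in the sources used here. Estimated counts were summed per gene and rounded, and TPM were summed. Groups came from the labels. The study's model had a batch term whose levels the labels do not give, so it was left out.

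edgeR 4.0.16 (R 4.3.3; filterByExpr, TMM, quasi-likelihood test) was fitted to all 17 samples as 4 group means, with Benjamini-Hochberg adjustment over all genes tested and calls at adjusted p under 0.05 and over 1.5-fold. Alternatives used DESeq2 1.42.0, limma 3.58.1 on log2(TPM + 1) and log2(TPM + 0.1), total-count and upper-quartile scaling, no filter, length-scaled TPM, protein-coding transcripts, the compared groups alone, a replicate block and omitted samples. The model code was tested on simulated data first. Deviations from group means correlated at 0.198, 0.123 and 0.257 between same-numbered control samples at 2.8 and 16.7 mM, which was taken as pairing since each was over 0.1. Other contrasts did not meet this. Between same-numbered Pcbp2βKO samples at 2.8 and 16.7 mM the correlations were 0.066, 0.172, 0.105, 0.075 and 0.193. Those of differently numbered Pcbp2βKO samples reached at most 0.044. The rule therefore does not show that the Pcbp2βKO samples were unpaired.

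Members, roles and marker lists were chosen with earlier results of these data known. Values in every sample are given for members called in any contrast, at most 12 per contrast by size, and of other pathway genes the 3 largest called in each direction are named. Camlg and Hm13 were found as Caml and H13. Promoter windows are RefSeq's on GRCm38.p6.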

Additional observations from a re-analysis of the deposited data

Results flagged for a closer look

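In groups of 4 or 5 samples, 5 of 129 sets of values, 3.88%, held a sample farther from the rest than Dixon's 95% limit allows, and chance flags about 1 in 20. Mogs in control at 16.7 mM was 5.06 CPM in replicate 4 and 18.2 to 20.1 in the other samples, and in Pcbp2βKO at 2.8 mM it was 2.42 in replicate 2 and 6.38 to 7.89 in the others. In Pcbp2βKO at 2.8 mM, replicate 5 was lowest for Ostc, at 138 CPM beside 240.2 to 282, and for Sec11c, at 111 CPM beside 193 to 220.2. Sec23b was highest in replicate 4 of that group, at 238 CPM beside 207 to 212.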

How the results depend on the processing

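The direction of the members' response to glucose rests on the scaling. On log2(TPM + 1) and on log2(TPM + 0.1), 3 members in control and 10 in Pcbp2βKO were called with glucose, all lower, against 16 and 27 higher with TMM. Of all genes, 268 were called higher and 6896 lower in control on log2(TPM + 1), and 356 and 8546 in Pcbp2βKO. On total counts 5 and 9 were called, of which 4 and 7 were higher, beside 783 and 1481 of all genes higher and 4054 and 6370 lower. Of all 42 members, 12 in control and 8 in Pcbp2βKO were above 0 on log2(TPM + 1), against 41 and 40 with TMM. Among members called with TMM, the log2 fold changes that changed sign on TPM, with a second value where the smaller pseudocount moved the last digit, were in control Sec13 -0.037, Kdelr2 -0.045 or -0.046, Spcs2 -0.11, Sec61b -0.19, Ssr1 -0.15 and Sec61g -0.25 or -0.26. In Pcbp2βKO they were Spcs1 -0.016, Sec23b -0.042 or -0.043, Sec61b -0.12, Spcs2 -0.15, Ostc -0.13, Sec13 -0.22, Srpr -0.25, Sec61g -0.29 or -0.30, Stt3a -0.19, Spcs3 -0.19, Ddost -0.29, Ssr1 -0.35, Ssr3 -0.31 or -0.32, Ganab -0.36 or -0.37, Sec11a -0.37, Sec31a -0.38 or -0.39, Uggt1 -0.56 or -0.57, Tmed10 -0.45 and Kdelr2 -0.44. The cause was not tested.

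With DESeq2, upper-quartile factors, no low-count filter, length-scaled TPM, protein-coding transcripts, the compared groups alone or adjusted p alone, 13 to 24 members were called higher with glucose in control and 27 to 31 in Pcbp2βKO, with 0 lower. The replicate block gave 31 members in control, 26 in Pcbp2βKO, 1 lower at 2.8 mM between genotypes (Ganab) and 0 at 16.7 mM. In control the block drew no glucose effect from replicate 4 at 16.7 mM, which has no partner at 2.8 mM. The block turned the median of the interaction from 0.07 to -0.084. Outside the glucose contrast in control, the numbers did not pair the samples by the rule used. Same-numbered Pcbp2βKO samples at 2.8 and 16.7 mM nonetheless correlated more than differently numbered ones. Without the 3 samples that stood apart, 31 members were called in each genotype. Leaving out 1 replicate at a time gave 4 to 29 members with glucose in control, 23 to 29 in Pcbp2βKO, 0 for the knockout at 2.8 mM, 0 to 1 at 16.7 mM and 0 for the interaction. Tmed5 was not called with the compared groups alone, which gave 0 members at 16.7 mM (adjusted p = 0.107), or with the block (adjusted p = 0.0984), and its adjusted p ran from 0.00446 to 0.174 over all alternatives. The lowest counts behind a member are those of Mogs, at 2.42 to 20.1 CPM.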
